A study of Mus musculus with 4 samples.

Results

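Mature olfactory sensory neurons (OSNs) usually carry the transcripts of a single odorant receptor gene, and in the deposited cell table each mature OSN is named by that receptor. The neurons described here are the mature OSNs to which no receptor name was given. They numbered 728 of 10519 mature OSNs, out of 21809 barcodes in all. A mature OSN had no name for 1 of 3 reasons. No receptor UMI (unique molecular identifier, a tag that marks an original RNA molecule) was found, in 155 neurons. The highest receptor lay below a limit of 8.28 UMIs per 10000 UMIs of the cell, in 229 neurons. Several receptors lay above that limit, in 344 neurons. The other 9791 mature OSNs had a single receptor above the limit and are called identified OSNs below. The receptor UMIs of each neuron thus chose the groups, so receptor levels are given as descriptions, and tests are confined to total UMIs and to genes outside the list of receptors. Total UMIs are the divisor of the limit, so the tests of depth are not wholly free of that choice.

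The main olfactory epithelium of 4 male C57BL/6 mice, 8 weeks old, was dissociated with papain and sorted for live nucleated cells. Each mouse gave 1 library of 3′ end single-cell RNA sequencing (10x Genomics), so that the mouse was the replicate. The labels give no treatment or transgene. All cells of a mouse came from the same library, and no condition was compared: the comparison is between kinds of mature OSN within each mouse.

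In the mouse, an OSN picks a single allele of a single odorant receptor gene out of a very large family that is spread over many chromosomal clusters. The newly made receptor protein passes through the endoplasmic reticulum, and the stress response it triggers there, through the transcription factor Atf5, is known to stabilise the choice and to switch on chaperones such as Rtp1 that carry receptors to the cilia. A smaller set of neurons uses trace amine-associated receptors (Taar genes) instead. Receptor genes are also known for long tails of untranslated sequence and for close copies within clusters, which bear on how 3′ end reads are counted.

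The label of mature OSN was checked against marker genes in all 3 kinds. The olfactory marker protein gene Omp stood at 69.2, 76.1, 71.2 and 71.0 UMIs per 10000 in the OSNs without a receptor of mice 1 to 4, and at 68.2, 75.6, 69.9 and 75.0 in the identified OSNs of the same mice. The groups overlapped, and the difference was small (log2 change 0.03 ± 0.05 SE, adjusted p = 0.956). In the OSNs below the limit Omp ranged from 62.0 to 80.03 and in those with several receptors from 66.4 to 78.5. The 17 genes of mature neurons and transduction, Omp among them, summed to 361.3 to 393.6 UMIs per 10000 without a receptor, to 358.6 to 405.4 below the limit and to 397.6 to 425.7 with several receptors, against 404.6 to 418.7 in identified OSNs. The OSNs without a receptor thus lay under the identified OSNs without overlap. Markers of sustentacular, immune and horizontal basal cells were near 0. The 7 sustentacular markers summed to at most 0.403 UMIs per 10000 in any mouse and kind, the 11 immune markers to at most 0.852, and the 6 horizontal basal markers to at most 0.0671. The 627 vomeronasal receptor genes summed to at most 0.158. A list of 30 genes of non-canonical sensory neurons summed to 3.285 to 3.515 in identified OSNs. The same list summed to 2.91 to 3.92 without a receptor, 2.81 to 4.21 below the limit and 3.29 to 3.94 with several receptors. Of its members, Gucy2d and Trpc2 were at 0 in all 3 kinds, and Emx1 was at 0 only without a receptor. Hemoglobin and other blood transcripts summed to 0.112 to 3.67 in the OSNs with several receptors, the highest in mouse 2, against 0.126 to 1.52 in identified OSNs. The hemoglobin gene Hba-a1 was among the genes called with several receptors, and 1 neuron held 54 of its 97 UMIs there (55.67%). The libraries shared 54 barcode sequences in pairs, and 4 of these belonged to neurons described here.

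A gene that the list of receptor genes left out stood out among the OSNs without a receptor, and its sequence is shown first. OR5BS1P (ENSMUSG00000108728) is annotated as a protein-coding gene at chr15:98469896-98478982 on the plus strand (GRCm38, GENCODE release M21), between the receptor genes Olfr281 (chr15:98452588-98460395) and Olfr279 (chr15:98492402-98502637). Its coding sequence has 924 bases. In a search of translated coding sequences OR5BS1P matched 1189 of 1213 odorant receptor genes with a coding sequence (98.02%) and, of the other coding genes, Gm44579 alone, at an e-value of at most 1e-10 over 22526 coding genes. The closest match was Olfr282, with 49.65% identical residues over 143 aligned residues. A stretch of 30 coding bases from the GENCODE transcripts is printed for OR5BS1P and the 3 receptor genes near it to show the resemblance. Capitals mark the letters CCNATGTACTTCTT, where N is any base. They came from the longest run of codons that OR5BS1P shares with Olfr281, Olfr282, Olfr284, Olfr286 and Olfr287, receptor genes of the same cluster. The last base of each codon was free to differ, and Olfr279 holds these letters too. On the coding strand these letters occurred in 334 of 1213 receptor genes (27.5%) and in 3 of 21313 other coding genes (0.0141%).
OR5BS1P: cgcaccCCCATGTACTTCTTtctgaggtac
Olfr281: cacacgCCCATGTACTTCTTcctaagtaac
Olfr282: cacacaCCCATGTACTTCTTcttaagcaat
Olfr279: cacacaCCGATGTACTTCTTcctctgccat
The stretch spans bases 157 to 186 of the OR5BS1P coding sequence and bases 166 to 195 in the other 3.

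OR5BS1P stood above the receptor limit in 35 of the 155 OSNs without a receptor (22.58%, 95% Wilson interval 16.71 to 29.78%). They came from every mouse, with 6 of 32, 5 of 39, 7 of 24 and 17 of 60 neurons in mice 1 to 4. It was also above the limit in 9 of the 229 OSNs below the limit (3.93%, 2.08 to 7.30%), with 2, 2, 2 and 3 neurons per mouse. Among identified OSNs it was above the limit in 3 of 9791 (0.0306%, 0.0104 to 0.0901%), and among OSNs with several receptors in 0 of 344 (upper Wilson bound 1.10%). An OR5BS1P UMI was found in 0.466% of all mature OSNs, and in 0.116 and 0.696% of the immature OSN clusters iOSN1 and iOSN2. Their median depths were 4861, 6830 and 7302 UMIs. Of the 284 immediate neuronal precursors, with a median of 7546 UMIs, 0.704% held it. No cell of the Mv2 cluster of microvillar cells, 1768 cells with a median of 5081 UMIs, held an OR5BS1P UMI. Intervals of this kind cover counting error only.

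These 35 and 9 neurons, 44 in all, held OR5BS1P at the level of a chosen receptor. They carried 11 to 116 UMIs of it, with a median of 87.5 per 10000 (24.5 to 165.9), and the median of the own receptor over identified OSNs was 79.95 per 10000. The highest listed receptor in these 44 neurons reached 1 UMI at most. Set among the 960 receptor identities of the deposited table, whose median size was 7 neurons and whose largest was 83, only 17 identities had at least 44 neurons. The levels of OR5BS1P beside those of the listed receptors are drawn neuron by neuron.

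**Figure D1:**
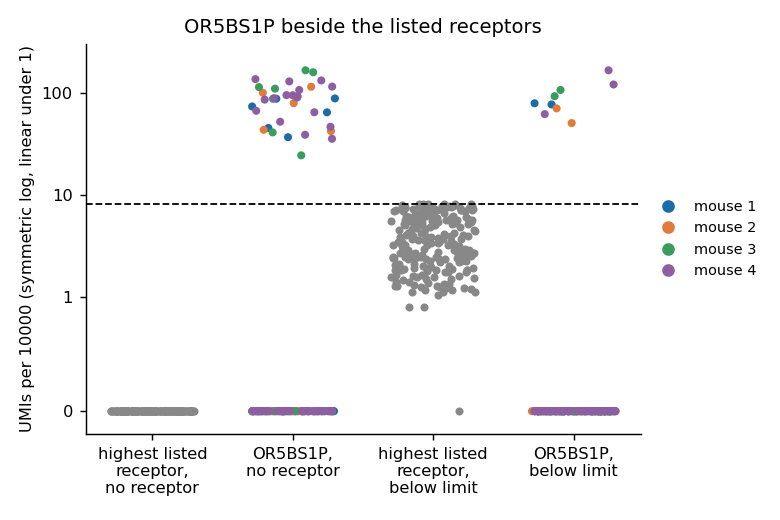
UMIs per 10000 (symmetric log axis, linear under 1) of the highest listed receptor (grey) and of OR5BS1P (coloured by mouse) in the 155 mature OSNs without a receptor and the 229 below the limit; each point is a neuron and the dashed line is the limit of 8.28. OR5BS1P lay above the limit in 35 and 9 neurons, from all 4 mice, and at or near 0 in the others.

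The sums of OR5BS1P per mouse were 9.80, 8.18, 29.8 and 22.9 UMIs per 10000 in the OSNs without a receptor and 0.00130, 0.0353, 0.0438 and 0.0163 in identified OSNs, with no overlap. In the OSNs below the limit they were 1.90, 2.98, 2.35 and 4.45. No test is given for this gene: the kinds were split by the presence of receptor transcripts, and it passed the filter on low counts through the kinds in which it is high. It is included in the counts of genes given further below.

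The 44 OR5BS1P neurons were also compared in other genes with the 9747 identified OSNs that were not named by a Taar gene, without a test because the neurons were picked by their own expression. S100a5, a calcium-binding protein whose transcript follows the activity of OSNs, was at 95.9, 74.7, 50.1 and 115 UMIs per 10000 in the OR5BS1P neurons of mice 1 to 4 and at 242, 206, 256 and 244 in the others, lower in 4 of 4 mice. Pcp4l1, which belongs to the same set of activity-linked genes, was at 1.66 against 18.6. Nqo1, an enzyme of dorsal OSNs, was at 0.0518 against 7.22, and Acsm4, also dorsal, at 0 against 1.58. Nfix, a transcription factor of ventral OSNs, was at 3.79, 4.69, 7.42 and 5.02 against 3.30, 4.33, 3.85 and 4.25, higher in 4 of 4 mice. The OR5BS1P neurons were thus low in the dorsal markers Nqo1 and Acsm4 and not in Nfix, the only ventral marker given for them here. Calb2 (calretinin) stood at 0.311 against 3.66 and the synaptic scaffold gene Dlg2 at 0.828 against 4.24. Omp was at 76.7 against 71.9, and the receptor chaperone gene Rtp1 at 4.96, 5.69, 6.33 and 5.97 against 3.52, 4.69, 4.17 and 4.09, higher in 4 of 4 mice.

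The share of mature OSNs without a name was nearly the same in every mouse, at 6.50, 7.25, 6.78 and 7.12% (6.91% ± 0.338, SD, n = 4). The split into kinds varied more. OSNs without a receptor made up 1.11, 1.54, 1.27 and 1.86% of mature OSNs in mice 1 to 4 (1.45% ± 0.327). OSNs below the limit made up 2.19, 1.66, 2.92 and 2.14% (2.23% ± 0.516), and OSNs with several receptors 3.198, 4.04, 2.60 and 3.13% (3.24% ± 0.597). The 95% Wilson intervals of the 4 mice overlapped for OSNs without a receptor, whereas for those below the limit mouse 2 (1.23 to 2.24%) and mouse 3 (2.25 to 3.78%) did not overlap.

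Total UMIs set the OSNs with several receptors apart. The median total in the OSNs with several receptors was 10188, 6252, 8691 and 7513 UMIs in mice 1 to 4, and in the identified OSNs 5578, 4342, 6567 and 3974. The neurons with several receptors were deeper in 4 of 4 mice, by 1.32 to 1.89 times (mean ratio 1.60, exact two-sided sign-flip permutation p = 0.12, which is the smallest value that 4 mice allow). They also showed 1.38 times as many detected genes (1.23 to 1.55 times, exact permutation p = 0.12). In the OSNs without a receptor the medians were 4818, 4460, 5738 and 3842 (ratio 0.930, lower in 3 of 4 mice, exact permutation p = 0.25), and in those below the limit 6153, 4190, 6362 and 4085 (ratio 1.01, exact permutation p = 0.875). The medians of the OSNs without a receptor and below the limit stood within 0.864 to 1.10 times those of the identified OSNs. The median share of mitochondrial UMIs was 0.766 to 1.58% over all kinds and mice. The plot of shares and depth gives these values by mouse.

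**Figure D2:**
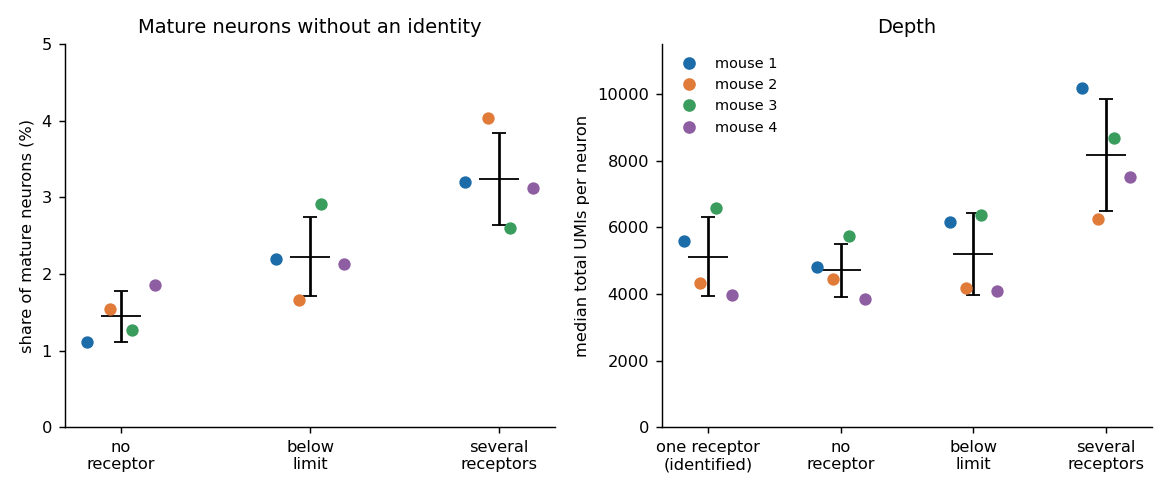
Left, share of mature OSNs in percent for each kind without an identity; right, median total UMIs per neuron for identified OSNs and the 3 kinds. Points are the 4 mice, bars the mean and SD; in every mouse the neurons with several receptors have the highest median, between 6252 and 10188 UMIs.

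Receptor levels, which chose the kinds, were as follows. The own receptor of an identified OSN had a median of 37 UMIs. In the 229 OSNs below the limit the highest receptor had 1 UMI in 116 neurons (50.7%), 2 in 44, 3 in 35, 4 in 23 and 5 or more in 10, and 1 neuron had none by the counts of the matrices. The highest value below the limit was 8.25 UMIs per 10000 (Olfr1100, 3 of 3636 UMIs, and Olfr55 with the same numbers), and the lowest identified value was 8.29 (Olfr775, 3 of 3619 UMIs). The neurons on either side of the limit thus rested on the same 3 UMIs.

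The OSNs below the limit spread over 134 receptors, of which 100 appeared in a single neuron. A handful came back repeatedly. Olfr1344 (chr7:6438688-6442161) was the highest receptor in 12 neurons, with 3, 2, 3 and 4 per mouse, and named none of the identified OSNs. Its level in the 12 neurons was 1 to 4 UMIs, and no identified OSN held a UMI of it. The pseudogene Olfr1372-ps1 (chr11:52154722-52168159) was the highest in 10 neurons, with 3, 2, 2 and 3 per mouse, and named 1 identified OSN. It had a UMI in 6.404% of the other identified OSNs and, among immature OSNs, in 5.66% of the iOSN1 and 2.29% of the iOSN2 cluster. In the other cell types the share was 0 to 1.47%, with 0.893% of sustentacular cells and 0.170% of Mv2 cells, whose median depths were 5587 and 5081 UMIs. Taar7f was the highest in 9 neurons and named none. Olfr1055 was the highest in 6 and named 3, with a median of 16.02 UMIs per 10000. Olfr55 was the highest in 6 and named 75, at a median of 22.4. In all, 50 of the 229 neurons had as their highest receptor 1 of 15 genes that named no identified OSN.

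The levels of these receptors in the identified OSNs that they name are given as a description. Of the 134 receptors, 94 named at least 5 identified OSNs, and the median over their population medians was 58.4 UMIs per 10000, against 81.2 over all 628 receptors with as many. Receptors of high level occurred too: Olfr1427, Olfr539 and Olfr586, each the highest in 1 neuron, had population medians of 303.5, 255.8 and 251. Near-identical copies also occurred. Taar7f and Taar7e shared 95.34% of their coding bases, Taar8b and Taar8c 97.48%, and Olfr288, the highest receptor in 4 neurons and in no identified OSN, 97.06% with Olfr287. Reads that fit 2 genes are not counted by the pipeline used, so the levels of such genes are uncertain. The identities given are of coding bases and not of the untranslated tails. Close copies also named many OSNs: Olfr55 and Olfr239 shared 98.75% and named 75 and 71. A link between copies and receptor levels was not tested. Receptors whose symbol marks a pseudogene were the highest in 19 of the 229 neurons (8.30%) and named 301 of the 9791 identified OSNs (3.07%). Of these 19 neurons, 10 were those of Olfr1372-ps1 alone, and in mouse 3 the shares were close, at 3.64 and 3.47%.

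Taar neurons recurred among them. A Taar gene was the highest receptor in 37 of the 229 OSNs below the limit (16.16%, 11.96 to 21.48%), with 19, 3, 10 and 5 in mice 1 to 4, while 44 of the 9791 identified OSNs (0.449%) carried a Taar name. Mouse 1 gave more than any other mouse of both, 20 of the 44 among identified OSNs. None of the 37 held UMIs of a further Taar gene. Their Taar level, by which the limit chose them, had a median of 4.12 UMIs per 10000 and reached 8.07 at most, and the summed Taar UMIs of the 44 identified Taar neurons ranged from 8.72 to 54.4. Total UMIs were alike, with medians of 6702 and 6542.

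Leaving OR5BS1P aside, the gene with the smallest adjusted p in the OSNs below the limit was Psmd14, a deubiquitinating subunit of the proteasome lid. It stood at 4.61, 2.42, 2.52 and 2.43 UMIs per 10000 in mice 1 to 4 against 1.18, 1.03, 1.04 and 1.00 in identified OSNs. All 4 values below the limit were higher, and mouse 1, with the most Taar neurons, was the highest. Psmd14 rose by 1.55 ± 0.11 on the log2 scale (SE, edgeR's quasi-likelihood test, adjusted p = 1.12e-16). Once the 37 Taar neurons were left out, an alternative chosen after seeing the data, the change was 0.19 ± 0.17 (adjusted p = 0.939). The Taar neurons below the limit held 12.3, 14.9, 7.45 and 10.0 UMIs per 10000 in mice 1 to 4, and the identified Taar neurons 9.55, 5.93, 8.74 and 8.01. The other OSNs below the limit held 0.960, 0.868, 0.975 and 1.87 and the other identified OSNs 1.11, 1.01, 0.983 and 0.986. In every mouse both sets of Taar neurons lay above both sets of other neurons. No test was made of these 4 sets, which were chosen by their receptors after Psmd14 had been seen.

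Tbr1, the gene next to Psmd14 on the plus strand (chr2:61711694-61800376 for Psmd14, with Tbr1 at chr2:61802930-61814114), was also high in Taar neurons, though not in every mouse. This T-box transcription factor was at 0.623, 0.498, 0.621 and 0.502 UMIs per 10000 in the Taar neurons below the limit and at 0.215, 0.258, 0.784 and 0 in the identified Taar neurons of mice 1 to 4. It was at 0, 0.0620, 0 and 0.184 in the other OSNs below the limit and at 0.00591, 0.00383, 0.00433 and 0.00244 in the other identified OSNs. Both sets of Taar neurons lay above both other sets in mice 1 to 3, and in mouse 4 the 6 identified Taar neurons held no Tbr1 UMI and lay under both. A Tbr1 UMI was found in 32.43% of the 37, in 20.45% of the 44 and in 0.216% of the other identified OSNs, at a median depth of 6702, 6542 and, over all identified OSNs, 4820 UMIs. Among the OSNs without a receptor 6 of 155 (3.87%) also held a Tbr1 UMI, and Psmd14 was at 2.77, 1.14, 1.95 and 0.813 UMIs per 10000 (0.61 ± 0.18, adjusted p = 0.152), higher in 3 of 4 mice. Levels of Psmd14 in the 4 sets and in the other kinds are plotted by mouse.

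**Figure D3:**
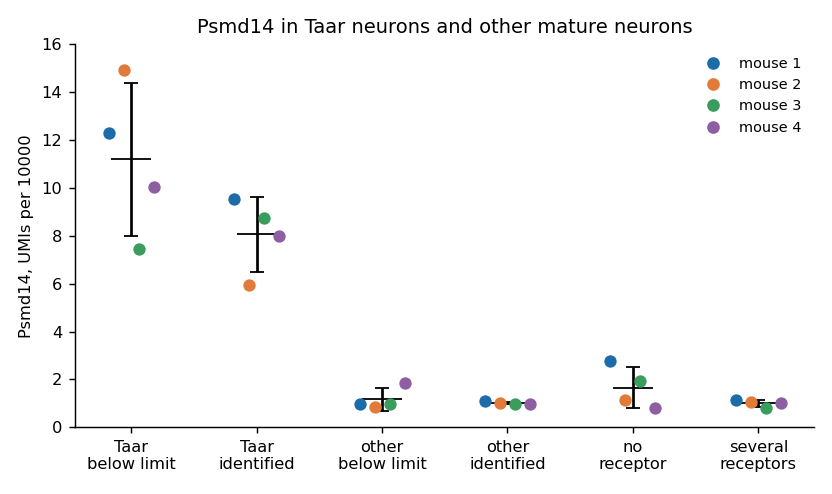
Psmd14 in UMIs per 10000 (linear axis from 0) in Taar neurons and other mature OSNs, below the limit and identified, and in OSNs without a receptor and with several receptors; points are sums per mouse, bars the mean and SD over 4 mice. Taar neurons lie between 5.93 and 14.9 in both sets and the others between 0.811 and 2.77.

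The other genes of the unnamed neurons were compared with those of identified OSNs. UMI sums per mouse and kind were compared with edgeR's quasi-likelihood test with the mouse as a block, and genes with a Benjamini-Hochberg adjusted p under 0.05 were counted. The 3 kinds were compared with the same identified OSNs, so the comparisons share them and each is given for itself. Of 6515 genes tested, 27 (0.414%) differed in the OSNs without a receptor, 14 higher (0.215%) and 13 lower (0.2%). In the OSNs below the limit 12 (0.184%) differed, 10 higher (0.153%) and 2 lower (0.0307%). In those with several receptors 14 (0.215%) differed, 12 higher (0.184%) and 2 lower (0.0307%). All 728 together differed in 22 of 11901 genes (0.185%), 17 higher (0.143%) and 5 lower (0.042%). At an unadjusted p under 0.05 there were 503, 390, 493 and 787 genes in that order. Without the mouse as a block the counts fell to 8, 3, 0 and 2, with 388, 278, 225 and 427 genes at an unadjusted p under 0.05, and none of the 13 lower genes of the OSNs without a receptor passed.

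In the OSNs without a receptor, 11 of the 27 genes passed the threshold whichever mouse was left out. OR5BS1P aside, for which no test is read, they included S100a5, Caly, Unc45a, Dlg2 and Ppa1, which were higher, and Calb2, Ano2, Tmbim6 and Atf5, which were lower. With DESeq2 12 of the 27 passed and 1 had no adjusted p, and those that passed included Caly, Unc45a, Ano2, Tmbim6 and Atf5. S100a5 stood at 400.5, 291, 369 and 438 UMIs per 10000 in mice 1 to 4 against 242, 206, 257 and 244 in identified OSNs, higher in 4 of 4 mice without overlap, and an S100a5 UMI was found in 96.13% of these neurons and in 95.84% of the identified OSNs with no Taar name. It rose by 0.69 ± 0.08 (log2, SE, edgeR's quasi-likelihood test, adjusted p = 4.57e-09), and by 1.00 ± 0.08 once the OR5BS1P neurons, which are low in it, were left out. With DESeq2 its adjusted p was 0.146. In OSNs below the limit S100a5 was at 394, 199, 385 and 325, with mouse 2 under its identified OSNs (0.45 ± 0.08, adjusted p = 3.30e-04). Caly, a neuronal vesicle protein, was at 1.08, 2.61, 0.671 and 0.941 against 0.564, 0.420, 0.431 and 0.492 (1.51 ± 0.21, edgeR adjusted p = 1.98e-06), with mouse 2 the highest. Unc45a, a chaperone of myosins, was at 2.58, 3.12, 4.30 and 3.17 against 1.61, 2.09, 1.81 and 1.93 (0.84 ± 0.11, adjusted p = 9.38e-07). Both rose in 4 of 4 mice and did not overlap with identified OSNs.

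Other genes rose by less or in fewer mice. Prxl2a, a peroxiredoxin-like protein, rose by 0.42 ± 0.08 (adjusted p = 0.00142). The tetraspanin Cd9 rose by 0.34 ± 0.07 (edgeR's quasi-likelihood test, adjusted p = 0.00732). Cd9 lost the threshold without mouse 2 or mouse 4 and without the OR5BS1P neurons (0.28, adjusted p = 0.106), in which it was at 8.32 to 14.6. Prxl2a lost it without mouse 1 or mouse 4. Dlg2, Selenom and Ppa1, named after their values were seen, were higher over all mice but not in each: Dlg2 was at 9.80, 3.63, 5.44 and 10.1 against 4.28, 3.68, 4.42 and 4.48 (0.85 ± 0.12, adjusted p = 2.02e-06), with mouse 2 level with its identified OSNs. Selenom was at 2.46, 6.93, 1.68 and 3.81 against 2.09, 1.87, 1.77 and 1.99, with mouse 2 the highest and mouse 3 under its identified OSNs, and lost the threshold without mouse 2. Ppa1 was at 19.2, 5.05, 7.72 and 10.1 against 7.97, 5.77, 5.76 and 5.87, and 1 neuron held 220 of its 759 UMIs (28.99%). With DESeq2 none of Dlg2, Selenom and Ppa1 passed. A call for the small nuclear RNA gene Rn7sk rested on 1 neuron of mouse 3, which held 624 of its 702 UMIs (88.89%).

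Of the 13 lower genes, Atf5, the transcription factor of the stress response named above, was at 25.1, 23.1, 26.4 and 26.0 UMIs per 10000 in the OSNs without a receptor of mice 1 to 4 against 32.7, 32.6, 31.8 and 32.1 in identified OSNs, lower in 4 of 4 mice without overlap. It fell by 0.32 on the log2 scale (SE 0.06, edgeR's quasi-likelihood test, adjusted p = 1.88e-04), and without the OR5BS1P neurons, in which it was at 39.4, 31.5, 37.8 and 32.7, by 0.44 (adjusted p = 1.57e-06). Herpud1, a membrane protein of the endoplasmic reticulum induced by unfolded proteins, was at 1.56, 0.909, 0.940 and 1.45 against 1.78, 2.15, 2.79 and 2.30 (-0.82 ± 0.17, adjusted p = 0.00305), and lost the threshold without mouse 3. Tmbim6, a cell-survival protein of the same membrane, was at 9.68, 8.86, 13.7 and 10.1 against 16.5, 15.2, 15.96 and 15.3 (-0.54 ± 0.08, adjusted p = 2.02e-06). Ppp1r15b, a phosphatase subunit, fell by 1.01 (SE 0.23, edgeR adjusted p = 0.0183), and lost the threshold without mouse 2 or mouse 3. Herpud1 and Ppp1r15b also lost it with DESeq2, against identified OSNs chosen for like depth and with 2000 UMIs drawn per neuron. Tmbim6 and Ppp1r15b fell outside the rule for naming genes and were named after their values were seen. Without the OR5BS1P neurons Rtp1 also passed (-0.58 ± 0.12, adjusted p = 0.00232). With all 155 neurons it was at 1.86, 3.92, 3.42 and 3.81 against 3.52, 4.68, 4.18 and 4.09 (-0.29, adjusted p = 0.275).

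Among the 9 genes of receptor trafficking and feedback, 8 could be tested and Atf5 alone passed, beside 0.414% of all genes tested, with a median log2 change of -0.26 over the 8 against 0.01 over all genes tested. The summed level of the 9 genes was 42.2 to 47.5 UMIs per 10000 in the OSNs without a receptor and 54.1 to 55.5 in identified OSNs, without overlap. Atf5 made up most of that sum, so the sum largely follows this gene. The sum was 50.3 to 52.5 in the OSNs below the limit and 52.3 to 55.2 in those with several receptors, where the medians of the list were -0.09 and -0.01 and none of the 8 passed. Of the 10 regulators of receptor choice, 9 were tested in each kind. Emx2, a homeobox factor on which many receptor genes depend, passed in the OSNs below the limit alone, where it was at 1.55, 1.60, 1.19 and 1.03 against 1.03, 0.9495, 0.920 and 0.782 (0.54 ± 0.13, edgeR adjusted p = 0.0391). That call was lost without any 1 of the 4 mice, and 0.184% of all genes tested passed in this kind.

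Of the remaining genes lower in the OSNs without a receptor, 2 belong to transduction and others mark zones or subsets. Ano2, the chloride channel that amplifies the odorant response, was at 1.14, 1.82, 2.69 and 1.67 against 2.47, 3.10, 3.31 and 3.03 (-0.69 ± 0.12, edgeR adjusted p = 1.88e-04). The ciliary protein gene Stoml3 was at 73.5, 71.6, 61.8 and 73.4 against 88.6, 82.0, 79.5 and 84.7 (-0.22 ± 0.05, adjusted p = 0.0333), and lost the threshold without mouse 1, 3 or 4 and without the OR5BS1P neurons. These were 2 of the 17 transduction genes, whose median was -0.07, beside 0.2% of all genes tested that were lower. The transcription factor gene Mef2b fell by 0.81 (SE 0.20, edgeR adjusted p = 0.0383), and lost the threshold without mouse 1, 2 or 3. Ifi27 and the thioredoxin reductase gene Txnrd1 fell by 1.09 and 0.85 (adjusted p = 0.0108 and 0.0333). Ifi27 lost the threshold without mouse 4, and Txnrd1 without mouse 2, 3 or 4. The dorsal markers Nqo1 and Acsm4 and the subset marker Calb2 also fell, and all 3 lost the threshold without the OR5BS1P neurons, at log2 changes of -0.16, -0.31 and -0.83 (adjusted p = 0.837, 0.688 and 0.0526). With DESeq2 none of Mef2b, Ifi27, Txnrd1, Nqo1, Acsm4 and Calb2 passed.

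Genes linked to activity, cell death and cell handling were looked at through fixed lists. Of the 9 activity-linked genes, whose sum was 319.9 to 478.3 in the OSNs without a receptor against 238.9 to 298.3 in identified OSNs, 8 were tested and S100a5 alone passed, with a median over the 8 of 0.04, beside 0.215% of all genes tested that were higher. S100a5 made up most of that sum. Of 8 cell death genes tested none passed in any kind (medians 0.22, 0.09 and 0.11). Of 7 immediate early genes tested, Jun passed in the OSNs without a receptor (0.50 ± 0.12, adjusted p = 0.0383, lost without mouse 2 or mouse 3 and with DESeq2), with a median of 0.27 and beside the same 0.215%, and none passed in the others. None of 12 mitochondrial, 86 ribosomal protein or 2 nuclear-retained transcripts tested passed in any kind. With 0.414, 0.184 and 0.215% of all genes passing in the 3 kinds, lists of these sizes would hold few calls or none at the same share, and nothing is read from their zeros.

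In the OSNs below the limit, OR5BS1P aside, Psmd14 alone passed without each mouse in turn: 2 of the 12 genes passed without mouse 1. With DESeq2 7 of the 12 passed, and Selenom, Calb2, Emx2 and S100a5 did not. Selenom, a selenoprotein of the endoplasmic reticulum, was at 4.18, 2.92, 2.40 and 2.67 against 2.09, 1.87, 1.77 and 1.99, higher in 4 of 4 mice without overlap (0.70 ± 0.13, edgeR's quasi-likelihood test, adjusted p = 0.00130). Stmnd1 and the opposite-strand transcript Uckl1os rose by 0.51 and 0.50 (adjusted p = 0.0206 and 0.00896), and Stoml3 fell by 0.27 (adjusted p = 0.00291). All 3 lost the threshold without the Taar neurons, where the log2 changes were 0.39, 0.42 and -0.17 (adjusted p = 0.341, 0.116 and 0.139). Calb2 was at 1.45, 2.92, 2.79 and 0.787 against 4.12, 3.56, 3.22 and 3.48, lower in every mouse and most so in mice 1 and 4 (-0.90 ± 0.17, adjusted p = 0.00140). Without the Taar neurons 22 genes passed, and Tmbim6 and Mef2b then fell in these neurons too, by 0.60 and 0.70 (adjusted p = 2.43e-09 and 0.0448). A call for the vasopressin gene Avp rested on 1 neuron of mouse 1, with 573 of 582 UMIs (98.45%).

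The OSNs without a receptor were also set directly against those below the limit. Of 6515 genes 7 (0.107%) differed, 4 higher (0.0614%) and 3 lower (0.046%). Dlg2 and Unc45a were higher without a receptor, by 0.86 and 0.68 (adjusted p = 5.11e-04 and 0.00929), and Tmbim6 and Psmd14 lower (-0.48 and -0.94, adjusted p = 7.96e-04 and 0.00220, edgeR's quasi-likelihood test). The other 3 were OR5BS1P, for which no test is read, and Rn7sk and Avp, each carried by a single neuron as above. Dlg2, Tmbim6 and Psmd14 lost the threshold without the Taar neurons below the limit, and Dlg2 and Psmd14 with DESeq2. Without mouse 1 or without mouse 4 the count was 4, and OR5BS1P aside none of the 7 passed without each mouse in turn. The 4 mice are plotted for genes named here.

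**Figure D4:**
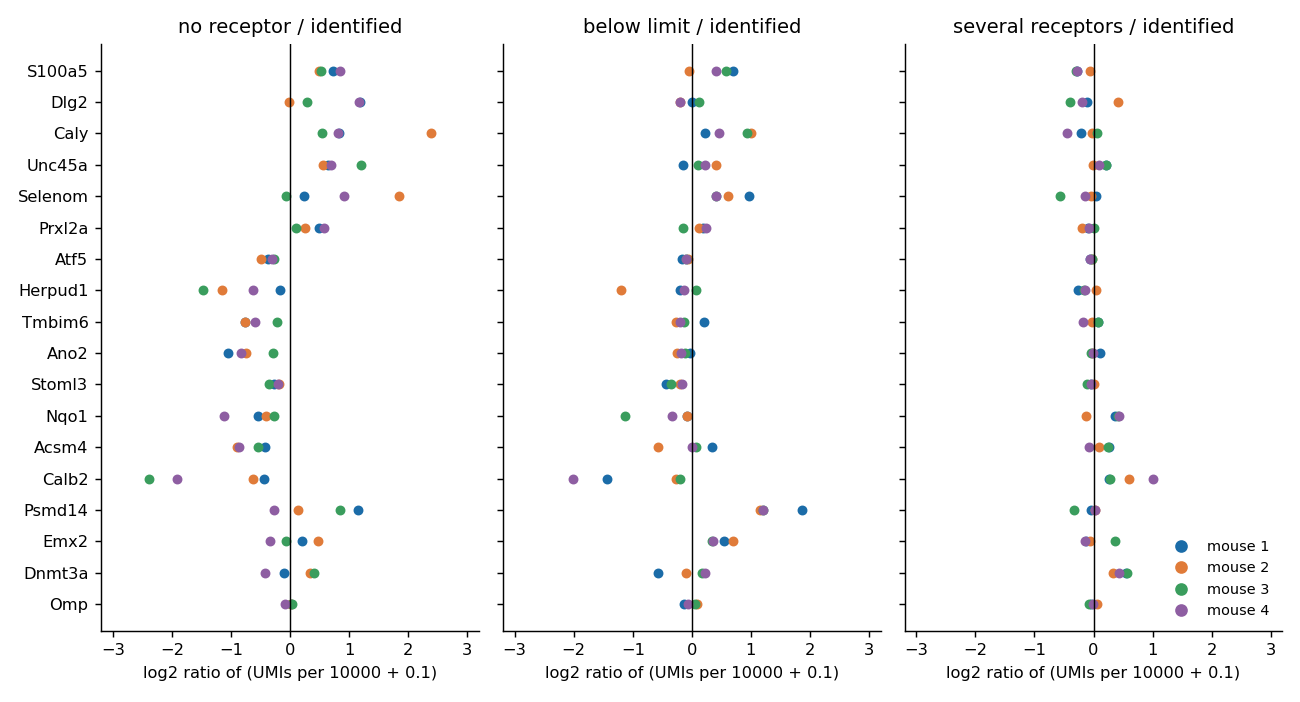
Ratio of each kind to the identified OSNs of the same mouse, as log2 of UMIs per 10000 plus 0.1, for genes named in the text in OSNs without a receptor (left), below the limit (middle) and with several receptors (right); each point is a mouse. S100a5, Caly and Unc45a lie right of 0 and Atf5 and Ano2 left of 0 in all 4 mice on the left and Psmd14 lies right of 0 in all 4 in the middle.

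In the OSNs with several receptors the highest receptor had a median of 59.5 UMIs per 10000 and the second of 22.2, with 17 UMIs at the median. The lowest second receptor stood at 8.36, just above the limit. Exactly 2 receptors were above the limit in 338 of the 344 neurons. The 2 highest receptors made 296 different pairs, of which 274 occurred in a single neuron and 22 came back, in 70 neurons.

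Neighbouring genes were frequent in these pairs. The 2 genes lay on the same chromosome in 88 of 344 neurons (25.58%) and started within 1 Mb of each other in 61 (17.73%), while pairings of the receptors of identified OSNs would place 13.61% and 3.95% there. Such pairings leave out receptors that named no identified OSN, so the shares are not fully alike. Olfr399 is such a receptor, and its pair with Olfr139 gave 17 of the 61 neurons. In 51 of the 61 neurons the genes had the same strand, and in 44 of these the receptor with fewer UMIs lay downstream of the other. Olfr139 with Olfr399 and Olfr1042 with Olfr1043 gave 17 and 12 of the 51 neurons, so these counts rest largely on few pairs. By GENCODE M21 bounds, which were not those used for counting, the genes were direct neighbours in 51 neurons and overlapped in 19.

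The 2 most frequent pairs were of this kind. Olfr139 (chr11:74044033-74056551) and Olfr399 (chr11:74053127-74056615), both on the minus strand, overlap by 3425 bases and were seen together in 17 neurons, with 4, 4, 2 and 7 per mouse. Olfr139 had 7 to 27 UMIs (median 13) and Olfr399 11 to 68 (median 29), and Olfr399 was the higher in all but 1 neuron. Olfr139 named 8 identified OSNs and Olfr399 none. Olfr1042 and Olfr1043 (chr2:86156743-86161838 and chr2:86161890-86167522, minus strand), 51 bases apart, were seen together in 12 neurons, with 2, 2, 4 and 4 per mouse and medians of 9.5 and 29.5 UMIs. They named 19 and 4 identified OSNs, and 3 of the 4 named Olfr1043 held an Olfr1042 UMI. Olfr617 and Olfr618, 3307 bases apart on chromosome 7, were seen together in 3 neurons, at medians of 22 and 4 UMIs. In the whole group the receptors Olfr1372-ps1 and Olfr300-ps1, both pseudogenes by name, were also frequent, in 14 and 7 neurons against 1 and 0 identified OSNs. A name needs a single receptor above the limit, so these counts are not alike. Olfr1372-ps1 stood at few UMIs there, such as 2 beside Olfr1195 and 5 beside Olfr711, in neurons of 1533 and 5801 UMIs. It also had a UMI in 6.404% of the other identified OSNs. Olfr139 with Olfr399 and Olfr1042 with Olfr1043 came back in 4 mice and Olfr617 with Olfr618 in 3. Of the other near pairs, Olfr1116 with Olfr1117-ps1 was seen in 2 neurons of 2 mice, Olfr1204 with Olfr1252 and Olfr1493-ps1 with Olfr1494 in 2 neurons of 1 mouse each, and the rest of the 29 near pairs once. Of the neurons with a single receptor above the limit, 10 of the 12 neurons named Olfr617 held a UMI of Olfr618 below the limit.

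Repeated pairs of distant genes were also seen. Apart from genes within 1 Mb, 15 pairs were seen in 2 barcodes of the same mouse, and all 30 barcodes came from mouse 2, with 0 such pairs in mice 1, 3 and 4. A further distant pair, Olfr1192-ps1 with Olfr1372-ps1, was seen in 2 neurons of 2 mice. In 14 of the 15 pairs the genes lay on different chromosomes, and the paired barcodes differed at 8 to 15 of their bases. Results for neurons with several receptors were therefore also computed with 1 barcode kept per repeated pair, an alternative chosen after seeing the data. The depth ratio was then 1.61 and the count of genes 11.

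Near and distant pairs differed in depth. The 61 neurons with genes within 1 Mb had a median of 4903 UMIs and the 283 with distant genes 8635, beside 4820 in identified OSNs. By mouse the medians of near pairs were 0.947 times those of identified OSNs (higher in 1 of 4 mice), and those of distant pairs 1.72 times (higher in 4 of 4). Distant pairs exceeded near pairs in 4 of 4 mice, by 1.82 times. Since the split was made after the pairs had been seen, no test is given for it.

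Nqo1 marks OSNs of the dorsal zone and Nfix those of the ventral zone, so a neuron is commonly in only 1 of these states. UMIs of both were found in 34.8, 29.4, 32.7 and 24.8% of the OSNs with several receptors in mice 1 to 4 and in 4.35, 5.55, 7.45 and 3.93% of identified OSNs. The share was higher in 4 of 4 mice, by 25.1 ± 4.01 percentage points (SD, n = 4, exact two-sided sign-flip permutation p = 0.12, the smallest that 4 mice allow). Among other cell types the share ran from 0.905% in Mv2 microvillar cells, where Nqo1 was rare (2.43% of cells) and the median depth was 5081 UMIs, to 20.96 and 28.57% in the horizontal basal clusters HBC2 and HBC1, whose markers were near 0 in the neurons described here. In immature OSNs it was 4.62 and 6.56%. At 2000 UMIs drawn from each neuron, which 9443 identified OSNs and 334 with several receptors reached, the pooled shares were 12.6% against 2.33%. Requiring 2 UMIs of each gene gave 19.8% against 1.30%. Of the distant pairs 34.98% held both and of the near pairs 4 of 61 (6.56%). In the OSNs without a receptor and below the limit the shares were 7.74 and 4.80%, and the differences from identified OSNs, 3.72 ± 4.33 and -0.35 ± 2.38 points, were within the spread between mice. The share of neurons among the 4% of barcodes with the highest doublet scores was 6.69% with several receptors against 2.01% in identified OSNs. A doublet score of this kind and a high total UMI count both moved with the kind, and their part in its gene values was not tested.

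**Figure D5:**
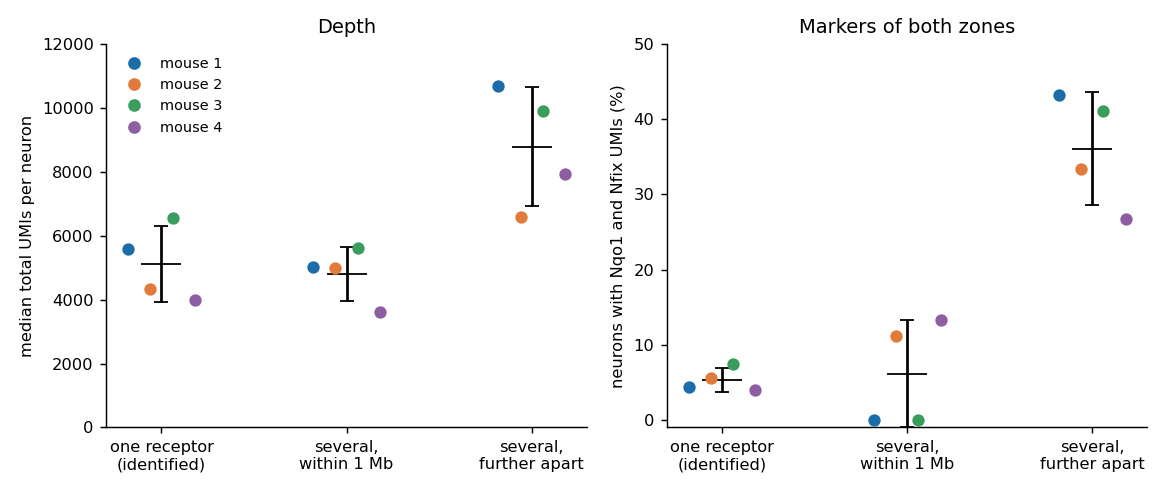
Median total UMIs per neuron (left) and percent of neurons with UMIs of both Nqo1 and Nfix (right) in identified OSNs and in OSNs with several receptors whose genes start within 1 Mb of each other or further apart. Points are mice, bars the mean and SD; distant pairs lie above the other sets in every mouse in both panels, and near pairs do not.

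Of the 14 genes that differed between OSNs with several receptors and identified OSNs, none did so without each mouse in turn: 1 of them passed without mouse 4 and 5 without mouse 1. DESeq2 and the fit without the mouse as a block called 0 genes, with 232 and 225 at an unadjusted p under 0.05. Calb2 was at 4.98, 5.43, 3.94 and 7.09 UMIs per 10000 in mice 1 to 4 against 4.12, 3.56, 3.22 and 3.48 in identified OSNs, higher in 4 of 4 mice (0.57 ± 0.10, edgeR's quasi-likelihood test, adjusted p = 0.00289). Leaving out the neurons with near pairs, in which Calb2 was at 14.7, 11.1, 20.1 and 18.0, brought it to 0.18 (adjusted p = 0.717). The near pairs were also high in Nqo1, at 14.4, 17.3, 33.5 and 19.4, and in Acsm4, at 3.77, 2.80, 6.46 and 3.03, against 1.26 to 1.88 for Acsm4 in identified OSNs. Dnmt3a, a DNA methyltransferase, was at 1.09, 1.36, 1.44 and 1.25 against 0.716, 1.06, 0.938 and 0.895 (0.49 ± 0.09, adjusted p = 0.00353). The calcineurin subunit gene Ppp3ca, the Mediator gene Med13l and the adhesion gene Flrt1 rose by 0.45, 0.43 and 0.27 (edgeR adjusted p = 0.00289, 0.0457 and 0.0262), and Map1lc3a, a protein of autophagosomes, fell by 0.25 (adjusted p = 0.0265). Ppp3ca, Flrt1 and Map1lc3a lost the threshold without the neurons with near pairs, and Med13l and Flrt1 without those with high doublet scores. Against identified OSNs chosen for like depth, 69 genes passed, 6 of the 14 among them, but not Dnmt3a or Map1lc3a. Matching was incomplete in mouse 1 (medians 10188 and 8952) and mouse 4 (7513 and 6430).

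The neurons with several receptors were also set directly against the mean of the 2 low kinds. Of 6515 genes 64 (0.982%) differed, 26 higher (0.399%) and 38 lower (0.583%), and 12 of these passed without each mouse in turn. With several receptors S100a5 was lower by 0.81 on the log2 scale, Selenom by 1.00 and Caly by 1.36, and Calb2 and Nqo1 were higher by 1.58 and 0.71 (adjusted p from 6.17e-06 to 1.31e-13, edgeR's quasi-likelihood test). Of the 17 transduction genes Adcy3, Ano2 and Stoml3 were higher, beside 0.399% of all genes tested. Adcy3 lost the threshold without mouse 1, Ano2 without mouse 1, 2 or 4, and Stoml3 without any 1 of the 4 mice. Without mouse 1 the count was 38 and without mouse 4 it was 22.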

How the data were processed

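Single-cell 3′ libraries of the main olfactory epithelium of 4 mice were analysed from the UMI counts per gene and barcode that the authors deposited, made with Cell Ranger 6.0.1 on GRCm38 per the submitters' processing notes. The deposited cell table gave the cluster, the receptor name and the reason for a missing name, and these labels were taken as they stand (10518 of 10519 were recovered from the counts; the limit is 3 median absolute deviations under the median of log-normalised highest receptors). Counts were summed per mouse and kind, without the 1430 receptor genes, and fitted with edgeR 4.0.16 (R 4.3.3; TMM, filterByExpr, quasi-likelihood test, Benjamini-Hochberg adjustment), with the mouse as a block because all kinds of a mouse share animal and library (deviations of kinds of the same mouse correlated at 0.0962 to 0.693 over 1909 genes). Each mouse is 1 replicate; the fit was tested on simulated counts. Levels are UMIs per 10000. Genes were named where they passed, moved alike in 4 mice and averaged at least 1 UMI per 10000, up to 8 per direction, besides members of 22 lists, the most frequent receptors below the limit and pairs seen in at least 2 neurons. Some items are not reported here. Members and lists were chosen with earlier results of these data known. Alternatives were DESeq2 1.42.0, no block, no filter, RLE scaling, 2000 drawn UMIs, depth-matched identified neurons, another limit, each mouse left out, and groups left out. Scrublet (scanpy 1.11.5) called at most 0.6% of barcodes, under 0.09% in 3 libraries, so the top 4% of scores were used. Coding sequences came from GENCODE M21 (GRCm38); translated searches used blast 2.17.0.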

Additional observations from a re-analysis of the deposited data

Results flagged for a closer look

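In 43 groups of 4 mice, chance alone singles out about 1 in 20, and 4 groups held a mouse far from the other 3. Cd9 in the OSNs without a receptor was at 6.85 UMIs per 10000 in mouse 3, against 10.1 to 10.7 in the others. Psmd14 in the OSNs below the limit was at 4.61 in mouse 1, against 2.42 to 2.52, and mouse 1 also gave 19 of the 37 Taar neurons below the limit. Map1lc3a in the OSNs with several receptors was at 6.43 in mouse 4, against 4.96 to 5.13, and identified OSNs of mouse 4 were also the highest, at 6.84. Mouse 2 held 15 distant receptor pairs that occurred in 2 barcodes each, and the other mice 0.

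Data outside the comparisons also held OR5BS1P. Besides the mature OSNs, 14 barcodes carried it above the receptor limit: 7 immature OSNs of the iOSN2 cluster, 1 immediate neuronal precursor and 6 barcodes that the authors' filters did not keep. Receptor UMIs of these barcodes were not compared.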

How the results depend on the processing

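With DESeq2 the counts of genes were 17 (no receptor), 7 (below the limit), 0 (several), 5 (all unnamed), 3 (no receptor against below) and 68 (several against both low kinds). The mouse is a natural pairing, and without it as a block the counts were 8, 3, 0, 2, 1 and 12 in that order. With 2000 UMIs drawn per neuron, where fewer genes could be tested, they were 15, 5, 1, 11, 2 and 14. Without a filter on low counts they were 57, 29, 15, 43, 10 and 67. DESeq2 gave no adjusted p to 3789 of 6515 genes (no receptor), 10383 of 11901 (all unnamed) and 4800 of 6515 (several against low). Of the calls made by edgeR, 9 of 22 (all unnamed) and 18 of 64 (several against low) thus had no DESeq2 adjusted p. Against depth-matched identified OSNs 69 genes passed for several receptors and 21, 10 and 19 without a receptor, below the limit and for all unnamed neurons. RLE scaling changed no count by more than 2. Leaving out 1 mouse at a time gave 19 to 31, 3 to 17 (3 without mouse 1), 1 to 17 (1 without mouse 4), 9 to 27 (9 without mouse 3), 4 to 7 and 22 to 56 (22 without mouse 4) in the same order. Among alternatives chosen after seeing the data, leaving out the OR5BS1P neurons gave 17 genes between no receptor and below, leaving out the Taar neurons gave 22 below the limit and 4 between no receptor and below, and for several receptors 8 passed without high doublet scores and 6 without neighbouring pairs. The causes were not tested. Over 47 named gene results and 735 values, 511 stayed on the same side of the threshold, 224 no longer passed and 0 reversed.

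The shares moved with the receptor limit. At 2 median absolute deviations 9.04% of mature OSNs were without a name, 5.59% below the limit and 2.00% with several receptors, and at 4 the shares were 10.15, 1.11 and 7.59%. Among OSNs with at least 2000 genes 7.73% had no name and 4.24% several receptors. Where a receptor counted only with at least 2 UMIs, 2.58% had none and 1.09% lay below the limit. Without 1 mouse at a time the share without a name was 6.80 to 7.05%, without a receptor 1.31 to 1.56%, below the limit 2.00 to 2.41% and with several 2.97 to 3.46%, and the depth ratios were 0.900 to 0.954, 0.987 to 1.03 and 1.51 to 1.71. The share with UMIs of both Nqo1 and Nfix, as a mean over mice, was 13.7% with several receptors, 2.45% in identified OSNs, 3.54% without a receptor and 2.92% below the limit at 2000 UMIs, and 20.5, 1.40, 0.781 and 1.19% with at least 2 UMIs of each. It was 36.1% with several receptors without neighbouring pairs. Without 1 mouse at a time it was 28.9 to 32.3% with several, 4.61 to 5.78% in identified OSNs, 6.50 to 10.4% without a receptor and 4.25 to 5.42% below.

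With 4 mice no exact test over mice can fall under 0.12, so the depth and zone differences rest on their size and their direction in each mouse. The OSNs without a receptor numbered 24 to 60 per mouse, so genes of few UMIs rest on few molecules: Ppp1r15b, which passed, had 34 UMIs over the 155 neurons. A receptor of 1 UMI, seen in 116 of 229 OSNs below the limit, cannot be told apart from stray RNA by counts alone. Receptor names, clusters and filters were taken from the deposited table. A doublet score finds mixtures of unlike cells best, and mixtures of 2 mature OSNs were not tested by it.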

Other observations

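Among the 22 genes that differed when all 728 neurons were set against identified OSNs, some appeared in none of the separate comparisons. Gap43, an axonal growth gene of immature OSNs, was at 0.476, 0.276, 0.237 and 0.171 UMIs per 10000 below the limit and at 0.247, 0.299, 0.225 and 0.389 with several receptors, against 0.206, 0.168, 0.127 and 0.166 in identified OSNs of mice 1 to 4. Without a receptor it was at 0.361, 0.114, 0.134 and 0.0855, under the identified OSNs in mice 2 and 4. Over all 728 neurons Gap43 rose by 0.69 ± 0.14 (log2, SE, edgeR's quasi-likelihood test, adjusted p = 0.0178), and lost the threshold without any 1 of the 4 mice and without the Taar neurons. It was the only 1 of 12 immature OSN genes to pass, with a median over the 12 of 0.16, beside 0.185% of all genes tested. The 12 genes summed to 12.4 to 13.3 UMIs per 10000 in identified OSNs, to 13.8 to 16.2 below the limit, to 11.95 to 14.6 without a receptor and to 12.5 to 14.4 with several receptors. Fxyd2, a regulator of the sodium pump, rose by 1.25 ± 0.22 (adjusted p = 0.00181), and 1 neuron without a receptor held 69 of the 79 UMIs of that kind.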
